A study of Macaca fascicularis with 48 samples.

Results

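Lumbar spinal cord was compared with thoracic spinal cord of the same cynomolgus monkeys (Macaca fascicularis). Of the 48 RNA-seq libraries of the series, 16 were lumbar or thoracic cord, from 8 animals that each gave both regions. An animal was left out where its lumbar library held under 10 CPM (counts scaled to library size) of MOG, a membrane protein of central myelin. This removed 2 animals, control 1 and treated 1, whose lumbar libraries held 0.258 and 0.087 CPM of MOG, while the 6 lumbar libraries that were kept held from 330.0 to 657 CPM. The comparison therefore rests on 12 libraries, 6 lumbar and 6 thoracic. Control animals received 0 mg/kg/day and treated animals 6 mg/kg/day of GS-8873, an inhibitor of hepatitis B virus transcripts, by oral gavage for 13 weeks. The kept animals were 3 controls and 3 treated animals, with 1 male and 2 females in each group. No genetic change is named for any animal, and ages, the vehicle and the exact segments sampled are not given in the sources used here. Codes in the labels read SC3 for every kept thoracic library, SC5 for 4 kept lumbar libraries and SC6 for those of control 2 and treated 4.

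The spinal cord is built from the same cell types along its length, but its segments differ in what they serve. Lumbar segments hold the motor neurons of the hind limb in an enlarged ventral horn, whereas thoracic segments hold trunk motor neurons, the sympathetic preganglionic neurons and Clarke's column. Position along the cord is encoded by the HOX genes, homeodomain transcription factors in 4 clusters whose members with higher numbers act closer to the tail. HOXC9 is known for setting thoracic motor columns, and the HOX10 genes for setting lumbar motor neuron identity.

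The 12 libraries held between 38652811 and 48227386 counts. The share of counts from the mitochondrial genome was 23.8% ± 11.4 (SD, n = 6) in thoracic cord and 15.8% ± 6.05 (SD, n = 6) in lumbar cord, lower in lumbar cord in 4 of 6 animals (exact sign-flip test, two-sided p = 0.125, where the smallest possible p is 0.03125). It passed 30% in the thoracic libraries of control 4 and treated 4. More genes had a count in the lumbar than in the thoracic library of each of the 6 animals (15434 ± 78.5 against 15137 ± 157, SD, n = 6, exact p = 0.03125). Defining genes of cord were present in every kept library: GFAP ran from 6430.4 to 24271 CPM and MBP from 11426 to 62139 CPM. The 2 lumbar libraries that were left out held 45.7 and 65.6 CPM of total counts of GFAP, a filament protein of astrocytes. On that measure the kept lumbar and thoracic libraries held from 7125 to 23807 CPM. Among the kept lumbar libraries, that of control 2 stood apart in peripheral myelin genes such as PRX, at 1964 CPM of total counts against 39.6 to 329.8 CPM in the other 5. The lumbar library of treated 2 stood apart in HOX and motor neuron genes, with few counts of HOX genes numbered 11 to 13 and the lowest CHAT, described below with each result. Whether it was taken from the same level of the cord as the others was not tested, so its values as lumbar cord are less certain. Levels are CPM scaled by TMM, a factor per library that corrects for RNA make-up, unless given as CPM of total counts. Changes are log2 fold changes of lumbar over thoracic cord ± SE, and each adjusted p is from edgeR's quasi-likelihood test with animal as a block and Benjamini-Hochberg adjustment. The SE was derived from that test, as the absolute log2 fold change over the square root of its F statistic. It is less certain for genes with few counts in a region.

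Of 14167 genes tested, 2118 (15%) were higher and 2686 (19%) lower in lumbar cord at an adjusted p under 0.05, and the median log2 fold change of all genes was 0.03. Among the gene lists described below, most members were higher in lumbar cord for ion channels, transmitter receptors, synaptic vesicles, axon guidance, vessels, collagens and peripheral myelin. Most were lower for central myelin, cholesterol synthesis, microglia and ribosomal proteins. The median of each of these lists kept its sign when libraries were scaled by total counts, which shifted all genes upward. In bulk tissue, fewer cells of a type and less RNA per cell cannot be told apart. In 6.38% of the genes tested the 6 lumbar libraries did not overlap the 6 thoracic ones, which is written below as without overlap. Of all calls 44.1% were higher in lumbar cord. Scaling by total counts without TMM turned this to 83.4% and moved the median of all genes to 0.39, and scaling by counts outside the mitochondrial genome gave 71.0% and 0.24. Without treated 3 the calls fell from 4804 to 1773, without control 2 to 2869, without both animals whose thoracic mitochondrial share passed 30% to 1889, and without both animals whose lumbar code was SC6 to 2 (DRP2 and SFRP1, both higher). Of the 4804 genes, 4801 could be measured in this last setting, and all 4801 kept their direction. The animals of this setting also entered the fit that chose these genes, so the kept direction is no independent check.

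Exon length moved with the comparison, for reasons that were not tested. The median summed exon length was 4734 bases for genes higher in lumbar cord, 1946.5 bases for genes lower and 3038 bases for the rest. Across the 14167 genes, Spearman's rho of fold change with exon length was 0.36, a description over genes, which are not independent replicates. The decile of shortest genes had a median log2 fold change of -0.46 and that of the longest one of 0.41. In thoracic cord, a gene's deviation from its mean level correlated negatively with length in 5 of 6 libraries (rho from -0.53 to -0.22, and 0.16 in control 3), and in lumbar cord it correlated positively in 5 of 6 (rho from 0.26 to 0.44, and -0.51 in treated 4). A second fit, chosen after the data were seen, therefore removed a smooth trend with exon length from each library. It called 1371 genes higher (9.68%) and 3065 lower (21.6%), and its counts are given below for many of the lists as counts with length adjustment.

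**Figure D1:**
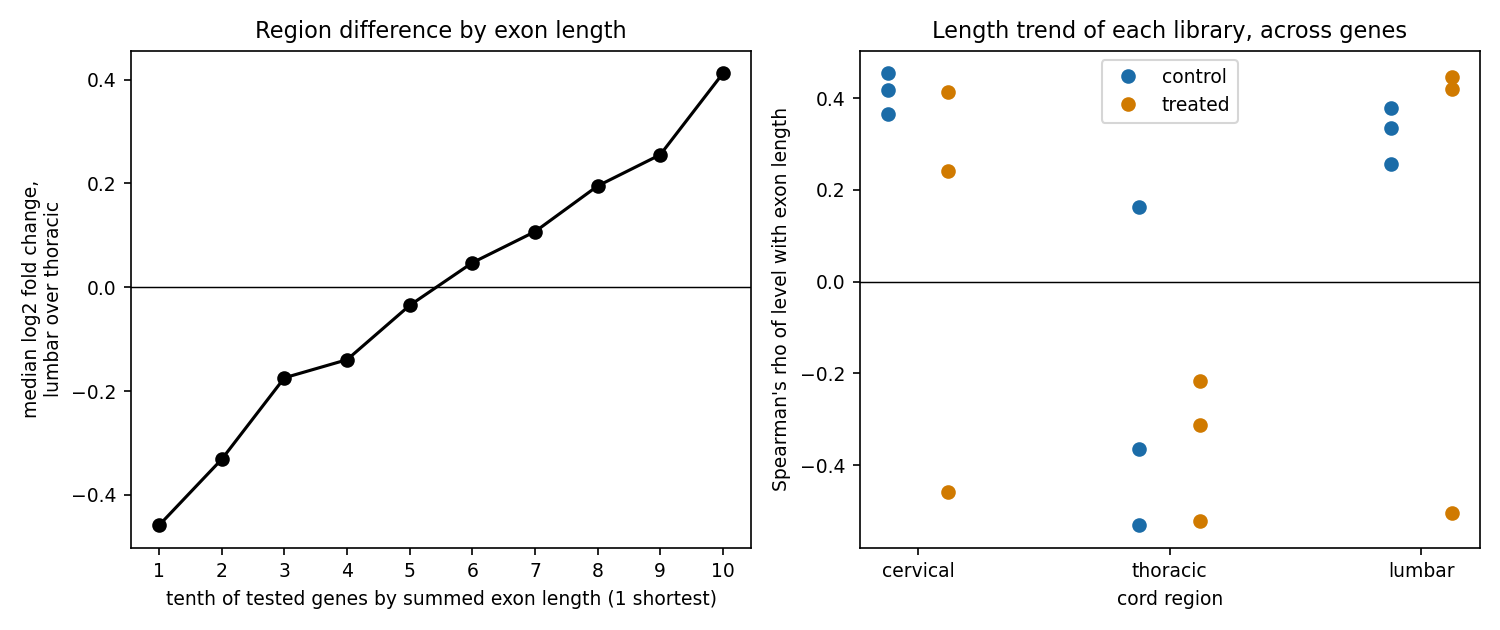
Left, the median log2 fold change of lumbar over thoracic cord in each decile of the 14167 tested genes by summed exon length, from -0.46 in the decile of shortest genes to 0.41 in that of the longest. Right, Spearman's rho across genes between exon length and a gene's deviation from its mean over the 18 cord libraries of the kept animals, 1 point per library; 5 of 6 thoracic libraries lie below 0 and 5 of 6 lumbar libraries above it.

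HOXD10 and HOXA11 were the 2 largest rises among genes that passed, averaged 1 CPM or more and moved 1 way in every animal. The deposited table names 35 HOX genes, of which 27 passed the filter on low counts, and 9 of these rose and 9 fell in lumbar cord. HOXD10 and HOXA11 passed the filter only through the lumbar libraries in which they are high, so that a rise of both was fixed by it. Of the other 6 tested genes numbered 9 to 13, 5 rose and 1 fell, and of the 19 numbered 1 to 8, 2 rose and 8 fell. HOXD10 (chromosome 12, 65081685 to 65084754 on Macaca_fascicularis_5.0) had 0 to 4 counts in each thoracic library, and in lumbar cord 30 counts in treated 2 and 1394 to 2365 in the other 5. It was thus nearly absent from thoracic cord and at 37.4 CPM in the median lumbar library (log2 fold change 9.81 ± 0.80, adjusted p = 0.00891). Since thoracic cord held 7 counts in all, the fitted value depends on how low counts are treated, and the plain ratio of summed CPM was 1352 with a 95% exact interval of 656 to 3364 that covers counting error only. HOXA11 behaved alike, with 8 counts over the 6 thoracic libraries, 26 counts in lumbar treated 2 and 458 to 783 in the other 5 (log2 fold change 7.93 ± 0.91, adjusted p = 0.00891). HOXD10 had a log2 fold change of 10.70 without control 2 and 10.40 without treated 2. HOXA11 had a log2 fold change of 9.27 without control 2.

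The other members numbered 9 and 10 were present in both regions. HOXA10 (chromosome 3, 93544596 to 93557631) ran at 1.26 to 14.6 CPM in thoracic cord (median 2.82) and 18.1 to 43.6 CPM in lumbar cord (median 30.7), without overlap (log2 fold change 3.09 ± 0.52, adjusted p = 0.00925). HOXD9 ran at 0.882 to 7.22 CPM in thoracic cord (median 1.52) and 5.52 to 21.7 CPM in lumbar cord (median 11.4), where the thoracic library of control 2 was above the lumbar library of treated 2 (log2 fold change 2.67 ± 0.42, adjusted p = 0.00898). HOXC10 (chromosome 11, 52886221 to 52895744) ran at 8.01 to 32.8 CPM in thoracic cord (median 14.9) and 25.7 to 66.4 CPM in lumbar cord (median 49.7) (log2 fold change 1.65 ± 0.33, adjusted p = 0.0113). All 3 were higher in lumbar cord in 6 of 6 animals. HOXB9 and HOXA9 rose as well, by log2 fold changes of 1.51 ± 0.50 and 1.20 ± 0.35, each in 5 of 6 animals. HOXA9 lost its call without control 3, treated 3 or treated 4 (adjusted p 0.0622 to 0.0872), and HOXB9 lost its call without control 3, control 4, treated 2, treated 3 or treated 4 (adjusted p 0.0596 to 0.0961).

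HOXC9 was the member numbered 9 or above that fell. Its levels were 7.25 to 26.2 CPM in thoracic cord (median 16.1) and 3.95 to 9.09 CPM in lumbar cord (median 4.71), and it was lower in lumbar cord in 6 of 6 animals (log2 fold change -1.43 ± 0.20, adjusted p = 0.00891). Its neighbours in the C cluster moved with it: HOXC8 fell, with a log2 fold change of -1.12 ± 0.16, HOXC6 of -1.12 ± 0.20 and HOXC5 of -1.35 ± 0.31, each in 6 of 6 animals, while HOXC4 did not pass (log2 fold change 0.06 ± 0.19, adjusted p = 0.82). In each of these genes the lumbar library of treated 2 was the highest of the 6 lumbar libraries, or the second highest for HOXC9. Of the genes with low numbers, HOXD1 (log2 fold change -1.28 ± 0.22), HOXA4 (-1.19 ± 0.24), HOXB2 (-0.74 ± 0.14) and HOXB4 (-0.53 ± 0.16) fell. The exceptions among them were HOXA6, which ran at 1.22 to 3.53 CPM in thoracic cord (median 2.46) and 2.36 to 6.17 CPM in lumbar cord (median 4.9) (log2 fold change 1.01 ± 0.22, adjusted p = 0.0133), and HOXA5 (log2 fold change 0.32 ± 0.11, adjusted p = 0.0455). HOXC5 lost its call without treated 3 (adjusted p 0.0563), HOXA5 lost its call without control 2, control 3, control 4, treated 2 or treated 3 (adjusted p 0.0595 to 0.121), and HOXB4 lost its call without control 2, control 4, treated 2, treated 3 or treated 4 (adjusted p 0.0547 to 0.0923). HOXB3, HOXB5, HOXB6, HOXB7, HOXB8, HOXA2, HOXA3 and HOXA7 did not pass, with log2 fold changes from -0.47 to 0.65.

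The remaining 8 HOX genes of the table failed the filter. Of these, 7, numbered 11 to 13, had few counts in thoracic cord and in lumbar treated 2. HOXC13, HOXC12 and HOXA13 had 0 counts in all 6 thoracic libraries. HOXC13 had 2 counts in lumbar treated 2 and 284 to 684 in the other 5 lumbar libraries, HOXC12 had 1 and 216 to 468, and HOXA13 had 0 and 23 to 63. Against a floor of 3 counts over the thoracic group, their summed CPM was at least 738-fold, 607-fold and 80.5-fold higher in lumbar cord. HOXD12 had 5 counts in lumbar treated 2, 611 to 1196 in the others, and 6 counts over all thoracic libraries. HOXC11 had 2 counts in lumbar treated 2, 230 to 424 in the others and 2 over all thoracic libraries, a ratio of 894 with an exact interval of 247 to 7390. HOXD13 had 0 counts in lumbar treated 2, 19 to 44 in the others and 6 over all thoracic libraries. HOXB13 had 2, 4 to 632 and 4, and its 4 counts in lumbar control 3 did not set treated 2 apart. The lumbar library of treated 2 thus held 0 to 5 counts of each of these 7 genes. Its HOXA10, at 18.1 CPM the lowest of the lumbar libraries, lay above every thoracic library. The 2 lumbar libraries left out had 22 and 32 counts of HOXD10. The 8th gene, HOXB1, had 34 counts over the lumbar and 22 over the thoracic libraries.

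**Figure D2:**
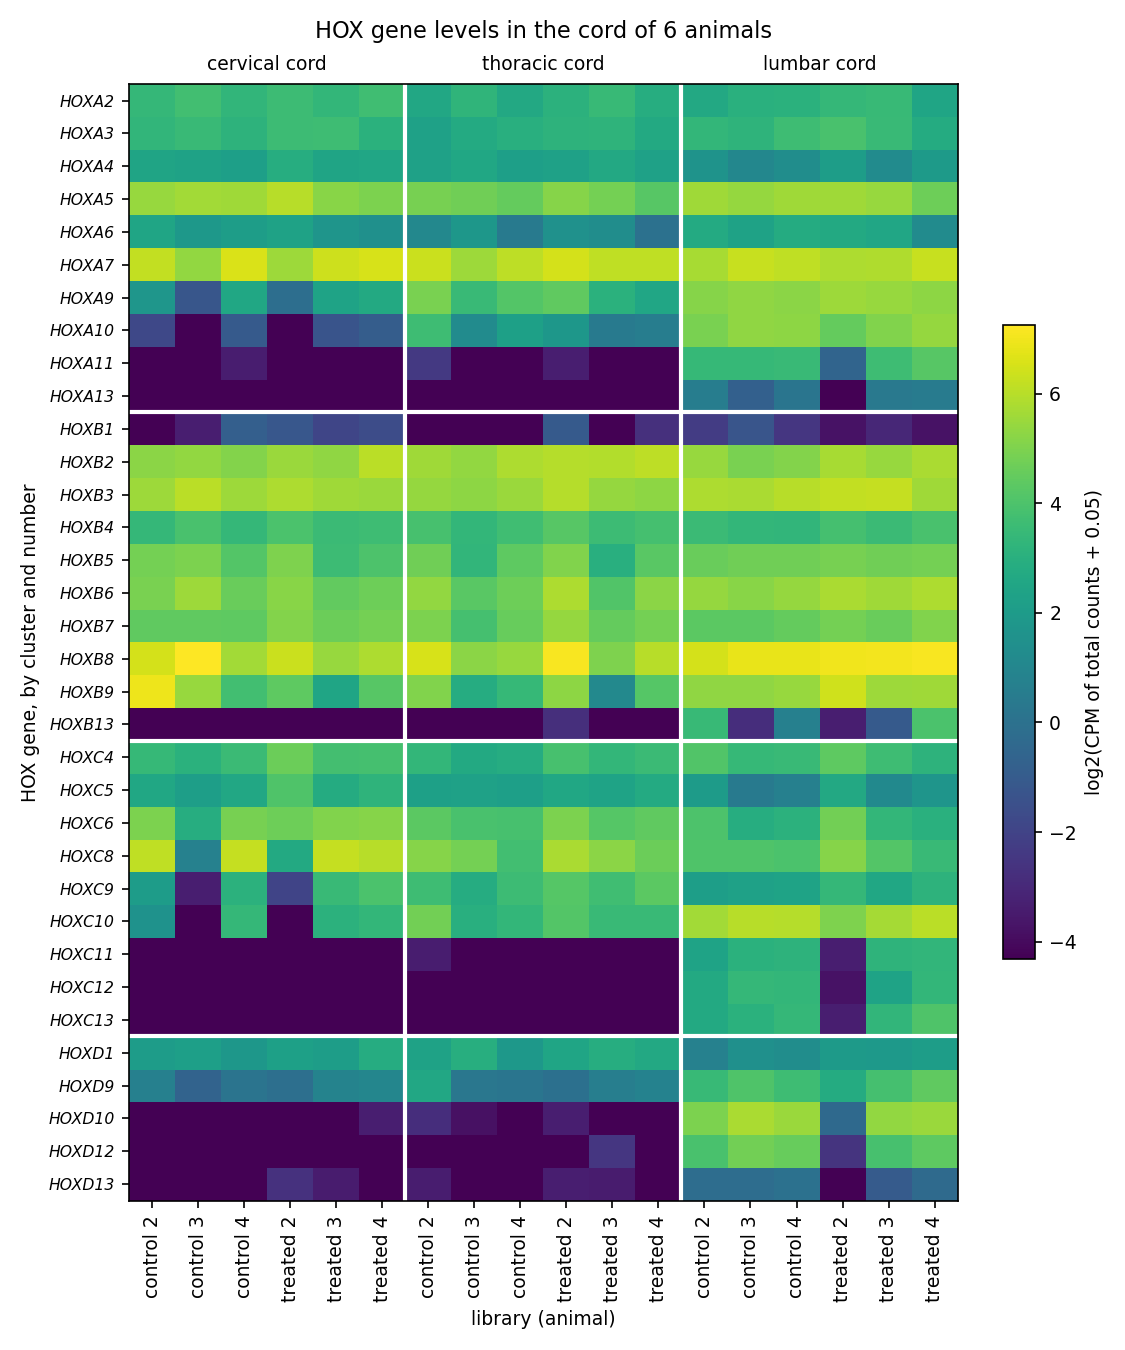
Levels of 34 HOX genes of the table, as log2 of CPM of total counts plus 0.05, in the cervical, thoracic and lumbar libraries of the 6 kept animals; rows are genes by cluster and number, columns are libraries. HOXD10 and HOXA11 have at most 6 counts in any thoracic library, against 30 and 26 counts in lumbar treated 2 and at least 458 in the other 5 lumbar libraries.

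**Figure D3:**
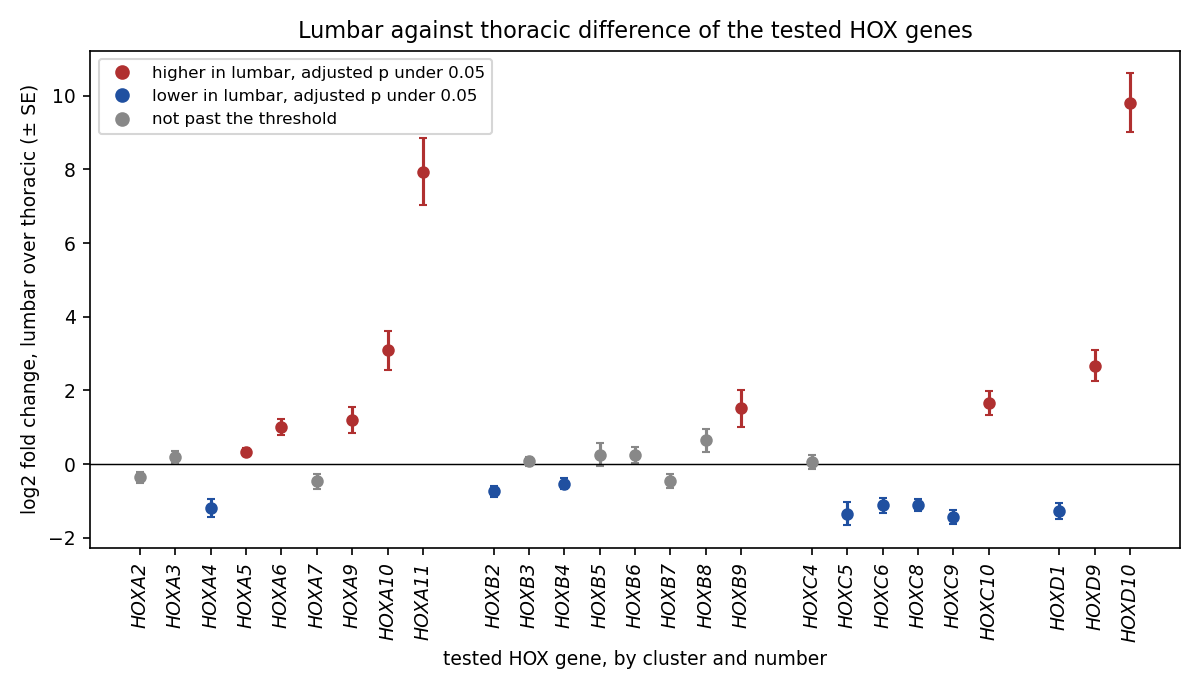
Log2 fold change of lumbar over thoracic cord ± SE (6 animals) for 26 tested HOX genes, in cluster order; red and blue points passed an adjusted p under 0.05 upward (9 genes) and downward (8 genes). The values run from -1.43 for HOXC9 to 9.81 for HOXD10.

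Without treated 2 the tested HOX genes counted 7 higher and 8 lower, with length adjustment 6 and 10, without the 2 animals of high mitochondrial share 4 and 5, and with total counts 13 and 7. Counting took no account of strand, so reads from antisense RNA of the HOX clusters cannot be told apart from those of the HOX genes. The annotated spans of HOXA10 and HOXA11 overlap, and that of HOXA3 covers HOXA4, HOXA5 and HOXA6, so these genes are less certain.

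Among cofactors of HOX proteins and regulators of the body axis, 24 genes were tested, with 5 higher and 3 lower in lumbar cord, not far from the 15% and 19% of all genes. PBX3 and MEIS1, whose proteins bind DNA together with HOX proteins, both fell. PBX3 ran at 88.4 to 111 CPM in thoracic cord (median 92) and 61.3 to 75 CPM in lumbar cord (median 67.2), without overlap (log2 fold change -0.53 ± 0.09, adjusted p = 0.00932), and MEIS1 was at -0.61 ± 0.11 (adjusted p = 0.00984). GDF11, a secreted factor that patterns the trunk to tail transition, fell, with a log2 fold change of -0.58 ± 0.19. ALDH1A3, an enzyme of retinoic acid synthesis, ran at 0.983 to 3.3 CPM in thoracic cord (median 2.37) and 10 to 80.4 CPM in lumbar cord (median 13.1) (log2 fold change 2.92 ± 0.44, adjusted p = 0.00891). TSHZ3, TSHZ2, the retinoic acid receptor gene RARB and PKNOX2 made up the other rises. PKNOX2 lost its call without control 2 or treated 3 (adjusted p 0.0626 to 0.0729), TSHZ2 lost its call without control 2, control 3, control 4, treated 2, treated 3 or treated 4 (adjusted p 0.05 to 0.115), and GDF11 lost its call without control 2, control 3, treated 3 or treated 4 (adjusted p 0.0825 to 0.156). The count of rises was 3 without control 2 or without treated 3, and 3 with length adjustment, where 2 genes fell. Scaling by total counts gave 10 rises and 0 falls.

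Transcription factors that mark domains along the dorsal to ventral axis were called in both directions, with 5 of 33 tested genes higher and 6 lower, which is close to the shares of all genes (15% and 19%). NKX2-2, known from ventral progenitors and the oligodendrocyte lineage, ran at 38.4 to 61.9 CPM in thoracic cord (median 47.8) and 10.7 to 27.1 CPM in lumbar cord (median 18.5), and every lumbar library lay below every thoracic one (log2 fold change -1.51 ± 0.22, adjusted p = 0.00891). PAX6 showed the same separation at 62.5 to 94.5 CPM in thoracic cord (median 74.6) and 20.9 to 47.6 CPM in lumbar cord (median 34.3) (log2 fold change -1.17 ± 0.18, adjusted p = 0.00891). IRX3 (log2 fold change -0.76 ± 0.16, adjusted p = 0.0133) and NKX6-2 (log2 fold change -2.003 ± 0.37, adjusted p = 0.00995), the latter also a gene of mature oligodendrocytes, fell in 6 of 6 animals. NKX2-8, outside this list but among the 15 largest falls of all genes, ran at 2.65 to 11.7 CPM in thoracic cord (median 8.32) and 0.25 to 1.71 CPM in lumbar cord (median 1.11) (log2 fold change -3.02 ± 0.53, adjusted p = 0.00944). The 5 rises were GATA2, ZIC1, ZIC4, NFIB and SHH. IRX3 lost its call without treated 3 (adjusted p 0.052), ZIC1 lost its call without control 2 or treated 3 (adjusted p 0.0563 to 0.0584), GATA2 lost its call without control 2, control 4 or treated 3 (adjusted p 0.0503 to 0.0712), ZIC4 lost its call without control 2, control 4, treated 2 or treated 4 (adjusted p 0.0537 to 0.099), NFIB lost its call without control 2, control 4, treated 2 or treated 3 (adjusted p 0.0513 to 0.0872), and SHH lost its call without control 2, control 4, treated 3 or treated 4 (adjusted p 0.0646 to 0.112). The rises numbered 0 without control 2, 1 without control 4 or without treated 3, and 0 without the 2 animals of high mitochondrial share, where 4 genes fell. With length adjustment 3 rose and 6 fell, and with total counts 9 rose and 3 fell.

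Of 27 voltage-gated channel genes tested, 20 rose and 0 fell (list median 1.45). SCN1A, a sodium channel of fast-spiking neurons, ran at 13.1 to 25 CPM in thoracic cord (median 16.4) and 33.7 to 185 CPM in lumbar cord (median 67.9), without overlap (log2 fold change 2.22 ± 0.36, adjusted p = 0.00898), and SCN8A, the main sodium channel of axon initial segments and nodes, at 1.92 to 9.56 CPM in thoracic cord (median 3.13) and 9.39 to 88.5 CPM in lumbar cord (median 30.4) (log2 fold change 2.97 ± 0.56, adjusted p = 0.0103). The calcium channel genes CACNA1C (log2 fold change 2.15 ± 0.29, adjusted p = 0.00891) and CACNA2D1 (log2 fold change 2.18 ± 0.35, adjusted p = 0.00898) rose in 6 of 6 animals. Length adjustment left 15 channel genes higher, and leaving out the 2 animals of high mitochondrial share 11.

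Of 40 neurotransmitter receptor genes, 25 rose and 0 fell (list median 1.26). GRIK2 and GRIA2, subunits of kainate and AMPA glutamate receptors, rose by log2 fold changes of 1.65 ± 0.25 and 1.13 ± 0.19. CHRM2, the muscarinic receptor found on motor neurons, ran at 0.0751 to 0.711 CPM in thoracic cord (median 0.384) and 0.844 to 8.12 CPM in lumbar cord (median 3.82), and every lumbar library lay above every thoracic one (log2 fold change 3.23 ± 0.66, adjusted p = 0.0119). The count was 8 without treated 3, 14 without control 4, 6 without the 2 animals of high mitochondrial share and 20 with length adjustment.

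Of 23 synaptic vesicle genes, 15 rose and 0 fell (list median 1.38). SV2C, a vesicle glycoprotein, ran at 1.82 to 7.1 CPM in thoracic cord (median 2.73) and 8.69 to 152 CPM in lumbar cord (median 35.4) (log2 fold change 3.65 ± 0.68, adjusted p = 0.01), and SYT2, the calcium sensor of fast release at motor terminals, at 3.51 to 11.5 CPM in thoracic cord (median 4.39) and 15.2 to 93.8 CPM in lumbar cord (median 33.7) (log2 fold change 2.72 ± 0.53, adjusted p = 0.0106). UNC13A and BSN, which prime vesicles and build the active zone, rose by log2 fold changes of 2.25 ± 0.37 and 2.26 ± 0.43. SNAP25, a general marker of neurons, ran at 156 to 859.7 CPM in thoracic cord (median 567) and 542 to 2276 CPM in lumbar cord (median 1143) and did not pass (log2 fold change 1.37 ± 0.53, adjusted p = 0.0752). The count was 7 without treated 3, 8 without control 4, 9 without treated 4, 5 without the 2 animals of high mitochondrial share and 10 with length adjustment.

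Of 23 genes of the neuronal cytoskeleton and axonal transport, 12 rose and 0 fell (list median 0.90). SPTBN4 and ANK3, which organise axon initial segments and nodes, rose by log2 fold changes of 1.54 ± 0.27 and 0.99 ± 0.15. The kinesin motor gene KIF5A ran at 180.4 to 361 CPM in thoracic cord (median 237) and 414 to 1005 CPM in lumbar cord (median 633), without overlap (log2 fold change 1.36 ± 0.25, adjusted p = 0.00997), and KIF5C rose by 0.81 ± 0.15. NEFH, the heavy neurofilament of large axons, ran at 23.5 to 275 CPM in thoracic cord (median 119) and 90.2 to 1597 CPM in lumbar cord (median 484) and did not pass (log2 fold change 2.07 ± 0.79, adjusted p = 0.0723). With length adjustment 8 genes were higher, without treated 3 there were 6 and without the 2 animals of high mitochondrial share 7.

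**Figure D4:**
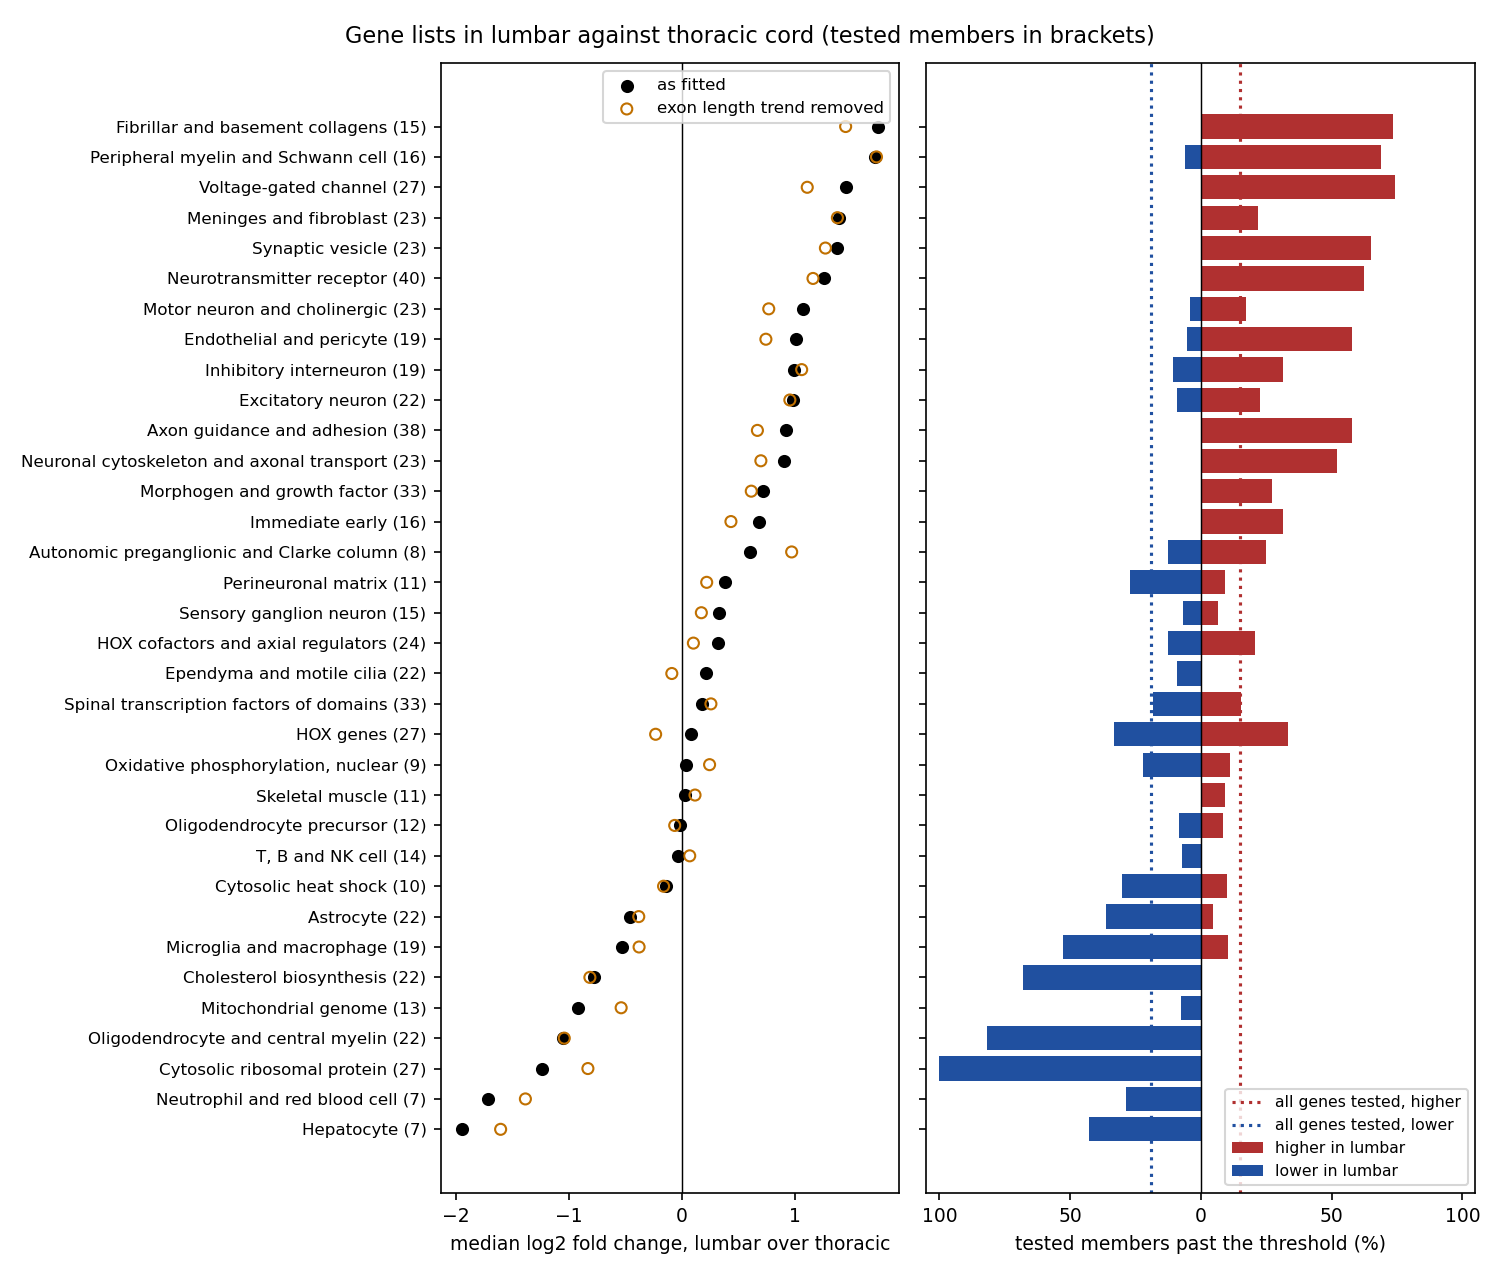
Left, the median log2 fold change of lumbar over thoracic cord over the tested members of each gene list with at least 7 of them, as fitted (filled) and with the exon length trend removed (open). Right, the percentage of tested members past the threshold, to the right where higher and to the left where lower in lumbar cord, with the shares over all genes tested dotted (15% and 19%). All 27 ribosomal protein genes lie on the lower side and 20 of 27 channel genes on the higher side.

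Genes of motor neurons had positive fold changes in 20 of 23 tested cases, as did 19 of 22 genes of excitatory neurons and 38 of 40 transmitter receptor genes. Of the 23, 4 rose (ISL2, LHX4, ESRRG and VIPR2), a share close to the 15% of all genes, and 1 fell (SPP1), with a median of 1.07. CHAT, which makes acetylcholine (chromosome 9, 45405309 to 45457927), ran at 0.939 to 2.17 CPM in thoracic cord (median 1.62) and 0.511 to 15.9 CPM in lumbar cord (median 7.1). It was higher in lumbar cord in 5 of 6 animals and lowest of all 12 libraries in lumbar treated 2, at 0.511 CPM (log2 fold change 1.95 ± 0.69, adjusted p = 0.0572). The choline transporter gene SLC5A7 had the same shape, with 1.59 CPM in lumbar treated 2 and 47.8 to 259 CPM in the other 5 lumbar libraries, against 14.7 to 62 CPM in thoracic cord (log2 fold change 1.24 ± 0.83, adjusted p = 0.268). ISL1 did not pass (log2 fold change 0.27 ± 0.51, adjusted p = 0.698).

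VIPR2, a receptor for vasoactive intestinal peptide, ran at 0.148 to 1.05 CPM in thoracic cord (median 0.544) and 0.832 to 4.71 CPM in lumbar cord (median 2.21) (log2 fold change 2.01 ± 0.53, adjusted p = 0.0228). ESRRG, a nuclear receptor of gamma motor neurons, ran at 8.9 to 19.1 CPM in thoracic cord (median 15.8) and 19.7 to 63.7 CPM in lumbar cord (median 36.2), without overlap (log2 fold change 1.32 ± 0.34, adjusted p = 0.0221). ISL2 and LHX4 are LIM homeodomain factors of motor neurons and rose by 1.75 ± 0.48 and 1.64 ± 0.51. SPP1, which encodes osteopontin and is made by several cell types besides motor neurons, fell, at 1238 to 1997 CPM in thoracic cord (median 1536) and 630.02 to 883 CPM in lumbar cord (median 818) (log2 fold change -0.96 ± 0.19, adjusted p = 0.0106). ESRRG lost its call without control 2, control 4 or treated 3 (adjusted p 0.0545 to 0.0686), VIPR2 lost its call without control 2 or treated 3 (adjusted p 0.0534 to 0.0624), ISL2 lost its call without control 2, treated 3 or treated 4 (adjusted p 0.0526 to 0.0705), and LHX4 lost its call without control 2, control 3, control 4 or treated 3 (adjusted p 0.0718 to 0.108). Without treated 2 the count of rises became 13, with CHAT at 2.52 (adjusted p = 0.014) and SLC5A7 at 1.89 (adjusted p = 0.0279). It was 2 without control 2 or without control 4, 0 without treated 3, 0 without the 2 animals of high mitochondrial share and 14 with total counts.

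CARTPT was among the 15 largest falls. It encodes the CART peptide, found in sympathetic preganglionic neurons among other cells, and lies on chromosome 6, 69858181 to 69860818. Its levels were 15.3 to 80.1 CPM in thoracic cord (median 32.1) and 0.762 to 9.83 CPM in lumbar cord (median 3.55), without overlap and lower in lumbar cord in 6 of 6 animals (log2 fold change -3.49 ± 0.36, adjusted p = 0.00891). Within the 8 tested genes of preganglionic neurons and Clarke's column it was the 1 that fell. NOS1, neuronal nitric oxide synthase, which preganglionic neurons share with many interneurons, rose instead, at 0.779 to 2.44 CPM in thoracic cord (median 0.98) and 0.869 to 11.2 CPM in lumbar cord (median 5.36) (log2 fold change 2.20 ± 0.49, adjusted p = 0.0145), and so did NTNG1 (log2 fold change 1.15 ± 0.36, adjusted p = 0.0386). NOS1 lost its call without treated 3 (adjusted p 0.0515), and NTNG1 lost its call without control 2, control 3, control 4, treated 3 or treated 4 (adjusted p 0.0572 to 0.101).

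Of 19 genes of inhibitory interneurons 6 rose and 2 fell (median 0.99). SLC6A5, the transporter that loads glycinergic terminals (chromosome 14, 46970473 to 47033136), ran at 6.28 to 66 CPM in thoracic cord (median 28.2) and 70.1 to 236 CPM in lumbar cord (median 126), without overlap (log2 fold change 2.32 ± 0.61, adjusted p = 0.0234). GAD1, which makes GABA, rose by 1.52 ± 0.48 in 5 of 6 animals, and the peptide gene PNOC by 1.23 ± 0.29. Galanin (GAL) fell, at 0.395 to 3.38 CPM in thoracic cord (median 1.94) and 0.0757 to 1.39 CPM in lumbar cord (median 0.319) (log2 fold change -2.15 ± 0.35, adjusted p = 0.00898), as did the glycine transporter gene SLC6A9. SLC6A5 lost its call without control 2, control 4 or treated 3 (adjusted p 0.0558 to 0.0719), GAD1 lost its call without control 2, control 3, control 4, treated 3 or treated 4 (adjusted p 0.0551 to 0.109), and SLC6A9 lost its call without control 2, control 3, treated 2 or treated 3 (adjusted p 0.052 to 0.0972). The rises numbered 9 without treated 2, 3 without control 2 or without control 3, 2 without control 4 or without treated 3, 2 without the 2 animals of high mitochondrial share, and 3 with length adjustment.

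Of 22 genes of excitatory neurons 5 rose, among them EBF1, EBF2, EBF3 and NMUR2, and 2 fell (NMB and SLC17A7), with a median of 0.98. Over all genes tested, 15% rose and 19% fell. EBF2, a transcription factor, ran at 0.188 to 2.42 CPM in thoracic cord (median 0.732) and 3.33 to 6.26 CPM in lumbar cord (median 5.39), without overlap (log2 fold change 2.68 ± 0.42, adjusted p = 0.00898), and EBF1 rose by 2.66 ± 0.52. SLC17A7, the first vesicular glutamate transporter, varied widely between thoracic libraries, and was lower in the lumbar library of each animal, at 0.211 to 31.8 CPM in thoracic cord (median 2.5) and 0.0625 to 1.76 CPM in lumbar cord (median 0.259) (log2 fold change -3.17 ± 0.59, adjusted p = 0.01). NMB, which encodes neuromedin B, fell, with a log2 fold change of -2.01 ± 0.29. SLC17A6, the transporter most spinal excitatory neurons use, did not pass (log2 fold change 1.37 ± 0.52, adjusted p = 0.0696). NMUR2 lost its call without control 4, treated 3 or treated 4 (adjusted p 0.057 to 0.0669), and EBF3 lost its call without control 3, control 4 or treated 4 (adjusted p 0.0768 to 0.107). The rises numbered 3 without control 3 or without treated 3, and 2 without control 4, without treated 4 or without the 2 animals of high mitochondrial share.

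**Figure D5:**
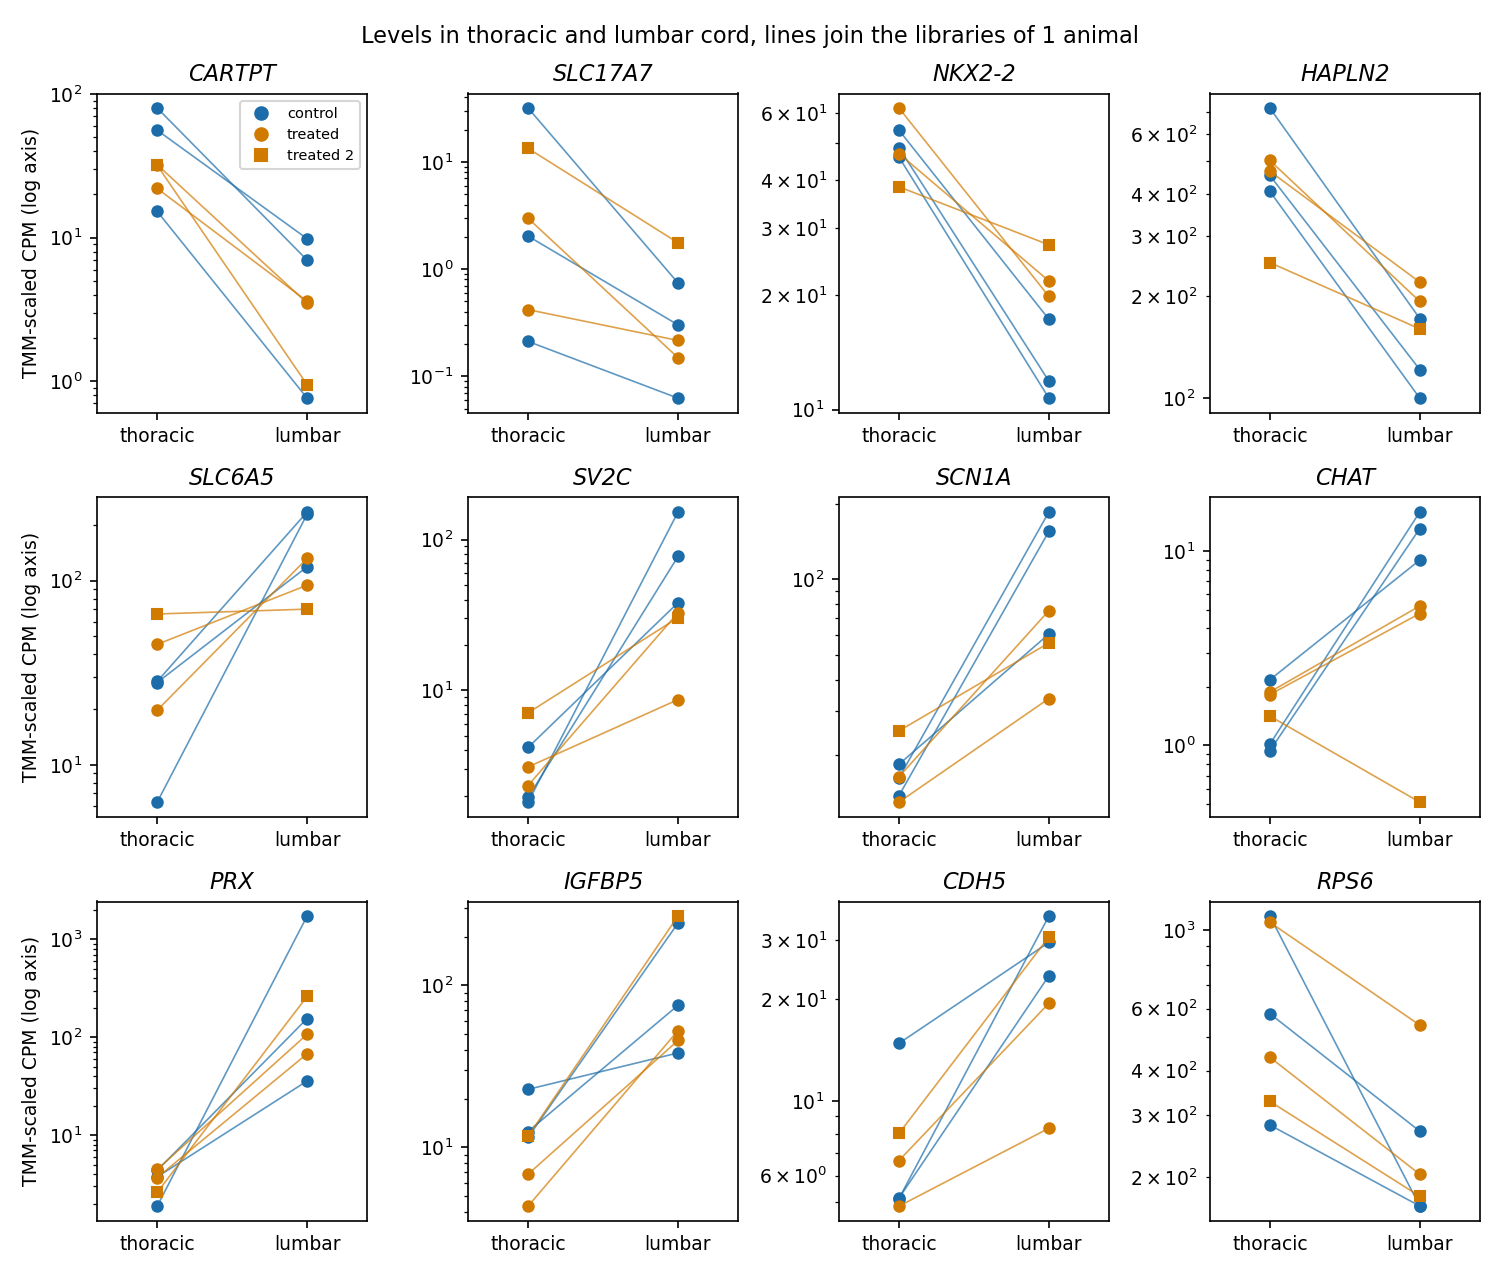
TMM-scaled CPM on log axes of 12 genes in thoracic and lumbar cord, with a line for each animal (blue control, orange treated, squares for treated 2). CARTPT, SLC17A7, NKX2-2, HAPLN2 and RPS6 are lower in lumbar cord in all 6 animals, CHAT is higher in all but treated 2, and the other 6 genes are higher in all 6.

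Of 22 genes of oligodendrocytes and central myelin, 18 fell and 0 rose (median -1.05). MBP, a structural protein of central myelin, ran at 18430.2 to 62139 CPM in thoracic cord (median 31658) and 11426 to 28454 CPM in lumbar cord (median 15974) (log2 fold change -1.001 ± 0.33, adjusted p = 0.0468). HAPLN2, a matrix protein of nodes of Ranvier, ran at 251 to 717 CPM in thoracic cord (median 460.4) and 100.02 to 219.8 CPM in lumbar cord (median 166), without overlap (log2 fold change -1.52 ± 0.22, adjusted p = 0.00891). ERMN, FA2H and TMEM125 fell, with log2 fold changes of -1.29 ± 0.21, -1.25 ± 0.22 and -1.83 ± 0.27, each in 6 of 6 animals. MBP lost its call without control 2, control 3, control 4, treated 3 or treated 4 (adjusted p 0.0562 to 0.143). Length adjustment left 16 genes lower, and leaving out the 2 animals of high mitochondrial share left 6. Genes of oligodendrocyte precursors were evenly split, with 1 of 12 higher (PDGFRA, which fibroblasts also make) and 1 lower (NEU4). The shares over all genes were 15% higher and 19% lower. PDGFRA lost its call without control 2, control 4, treated 2, treated 3 or treated 4 (adjusted p 0.0512 to 0.113).

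Cholesterol synthesis genes, active in myelinating cells, fell in 15 of 22 cases and rose in 0 (median -0.78). MSMO1 ran at 243 to 801 CPM in thoracic cord (median 480.01) and 111 to 336 CPM in lumbar cord (median 217) (log2 fold change -1.13 ± 0.15, adjusted p = 0.00891) and TM7SF2 at 107 to 206 CPM in thoracic cord (median 155) and 43.8 to 101 CPM in lumbar cord (median 53.8), the latter without overlap (log2 fold change -1.38 ± 0.18, adjusted p = 0.00891). NSDHL and FDFT1, which act late and early in the sterol arm, fell, at -1.07 ± 0.14 and -0.91 ± 0.12. In all 4 genes every animal had the lower value in lumbar cord. Length adjustment left 14 genes lower.

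Of 22 astrocyte genes 8 fell and 1 rose (SLC6A11), with a median of -0.45, where 19% of all genes tested fell and 15% rose. Fold changes were negative in 13 of the 22 genes and positive in 9. S100B, a calcium-binding protein of astrocytes and oligodendrocytes, ran at 2191 to 7481 CPM in thoracic cord (median 5674) and 852 to 1949 CPM in lumbar cord (median 1171), without overlap (log2 fold change -2.08 ± 0.29, adjusted p = 0.00891). GFAP ran at 14526 to 24271 CPM in thoracic cord (median 19416) and 6430.4 to 12155 CPM in lumbar cord (median 9869.9), also without overlap (log2 fold change -1.04 ± 0.27, adjusted p = 0.0231), and the water channel gene AQP4 fell, at -0.79 ± 0.21. FABP7 and CD44 fell, at -1.42 ± 0.28 and -1.26 ± 0.26, and MLC1 at -0.70 ± 0.17. GFAP lost its call without control 2 or treated 3 (adjusted p 0.071 to 0.0717), AQP4 lost its call without control 2, control 4, treated 3 or treated 4 (adjusted p 0.0532 to 0.0699), MLC1 lost its call without treated 3 (adjusted p 0.0631), and SLC6A11 lost its call without control 2, control 3, control 4, treated 3 or treated 4 (adjusted p 0.0592 to 0.109). The falls numbered 4 without control 2, 3 without treated 3, 3 without the 2 animals of high mitochondrial share and 9 with length adjustment. Scaling by total counts gave 3 rises and 3 falls with a median of -0.09, so the falls depend on the scaling.

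Of 19 genes of microglia and macrophages 10 fell and 2 rose (median -0.53). TYROBP, an adaptor of microglial receptors, ran at 27.3 to 146 CPM in thoracic cord (median 56.8) and 8.9 to 64.4 CPM in lumbar cord (median 16.4) (log2 fold change -1.79 ± 0.30, adjusted p = 0.00919), and its partner TREM2 at 26.3 to 60.7 CPM in thoracic cord (median 39.8) and 8.81 to 32.5 CPM in lumbar cord (median 14.6) (log2 fold change -1.42 ± 0.25, adjusted p = 0.00933). AIF1 fell, at -1.34 ± 0.22. The rises were CD163 (log2 fold change 0.91 ± 0.17, adjusted p = 0.0103) and MRC1, which mark macrophages around vessels and in the meninges. MRC1 lost its call without control 2, control 4, treated 2 or treated 3 (adjusted p 0.0527 to 0.0805). The falls numbered 6 without control 2, 3 without treated 3, 4 without the 2 animals of high mitochondrial share and 6 with length adjustment. Scaling by total counts gave 2 rises and 4 falls with a median of -0.16.

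Of 19 genes of endothelium and pericytes 11 rose and 1 fell (KCNJ8), with a median of 1.01. CDH5, the cadherin of endothelial junctions, ran at 4.87 to 14.8 CPM in thoracic cord (median 5.9) and 8.29 to 35.4 CPM in lumbar cord (median 26.5) (log2 fold change 1.70 ± 0.27, adjusted p = 0.00898), and the barrier transporter gene ABCB1 at 7.7 to 31.2 CPM in thoracic cord (median 12.4) and 16.5 to 66.9 CPM in lumbar cord (median 42.1) (log2 fold change 1.57 ± 0.26, adjusted p = 0.00898). The smooth muscle actin gene ACTA2 rose by 2.06 ± 0.40, without overlap, and PECAM1 by 1.06 ± 0.21. KCNJ8 lost its call without treated 3 (adjusted p 0.0635). The rises numbered 6 without control 2, 5 without treated 3 and 8 with length adjustment.

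Of 15 collagen genes 11 rose and 0 fell (median 1.73). COL4A2, of basement membranes, ran at 5.56 to 15.8 CPM in thoracic cord (median 13.4) and 25.5 to 224 CPM in lumbar cord (median 45.9), without overlap (log2 fold change 2.19 ± 0.38, adjusted p = 0.00932), and COL4A1 rose by 2.53 ± 0.49. COL8A1 rose by 2.48 ± 0.57 and COL11A1 by 0.62 ± 0.11, while COL1A1, the main fibrillar collagen, did not pass (log2 fold change 1.19 ± 0.86, adjusted p = 0.307). COL8A1 lost its call without treated 3 (adjusted p 0.0517). The count was 7 without control 4 or without treated 2, 3 without treated 3, 5 without the 2 animals of high mitochondrial share and 6 with length adjustment, where COL11A1 was at 0.18 (adjusted p = 0.147).

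Of 23 genes of meninges and fibroblasts 5 rose and 0 fell (FOXC1, BMP6, SLC47A1, TBX18 and PDGFRA). The share of rises is not far from the 15% of all genes, of which 19% fell. FOXC1, a transcription factor of meningeal fibroblasts, ran at 0.376 to 1.16 CPM in thoracic cord (median 0.604) and 1.29 to 6.62 CPM in lumbar cord (median 2.44), without overlap (log2 fold change 2.06 ± 0.43, adjusted p = 0.0123), and BMP6 rose by 2.01 ± 0.46. SLC47A1 lost its call without control 2, control 3, treated 2 or treated 3 (adjusted p 0.0513 to 0.0741), and TBX18 lost its call without control 2, control 4, treated 2 or treated 3 (adjusted p 0.0725 to 0.105). The count was 2 without control 2, without treated 2 or without treated 3, and 3 with length adjustment. The summed level of the list ran from 1254 to 4486 CPM of total counts in thoracic and from 886 to 5106 in lumbar libraries.

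Peripheral myelin genes were among the largest rises. Of 16 genes of Schwann cells and peripheral myelin 11 rose and 1 fell (FXYD1), with a median of 1.71. Periaxin (PRX) ran at 1.88 to 4.46 CPM in thoracic cord (median 3.71) and 35.8 to 1736 CPM in lumbar cord (median 131), and even the lowest lumbar library, that of control 3, lay above every thoracic one (log2 fold change 5.37 ± 0.85, adjusted p = 0.00898). NCMAP, a protein of noncompact myelin, ran at 0.209 to 1.5 CPM in thoracic cord (median 0.416) and 7.79 to 295 CPM in lumbar cord (median 33.3) (log2 fold change 6.25 ± 0.68, adjusted p = 0.00891). MLIP rose by 6.56 ± 0.78 and DHH, a hedgehog ligand of Schwann cells, by 5.24 ± 1.11. In each of these 4 genes the highest library was lumbar control 2. DHH ran at 0 to 0.203 CPM and MLIP at 0 to 1.69 CPM in thoracic cord. Both passed the filter on low counts through the lumbar libraries, so the filter favoured a rise. PRX had a log2 fold change of 4.75 without control 2, NCMAP had a log2 fold change of 5.60 without control 2, MLIP had a log2 fold change of 5.94 without control 2 and 7.33 without control 4, and DHH had a log2 fold change of 4.29 without control 2, 6.14 without control 3 and 6.10 without treated 4. Over the 16 genes, the summed level was 494 to 848 CPM of total counts in thoracic cord and 875 to 14862 in lumbar cord. The count was 9 without control 2, 6 without the 2 animals of high mitochondrial share and 11 with length adjustment. Among sensory ganglion genes, 1 of 15 rose (AVIL) and 1 fell (TRPM8), and with length adjustment 0 rose and 3 fell. AVIL lost its call without control 2, control 3, control 4 or treated 3 (adjusted p 0.0869 to 0.127), and TRPM8 lost its call without control 2 or treated 3 (adjusted p 0.0503 to 0.0533). Among skeletal muscle genes 1 of 11 rose (TTN). For comparison with these sensory and muscle counts, 15% of all genes rose and 19% fell. The share of nerve root carried with each sample was not tested as a source of these values.

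Also among the 15 largest rises were SLC36A2, an amino acid transporter gene (log2 fold change 6.67 ± 0.96, adjusted p = 0.00891), PLEKHG7 (log2 fold change 5.88 ± 0.95, adjusted p = 0.00898), GAS2L3 (log2 fold change 5.20 ± 0.71, adjusted p = 0.00891), MYLK4 (log2 fold change 4.38 ± 0.79, adjusted p = 0.00976), SMCO3 (log2 fold change 4.36 ± 1.01, adjusted p = 0.0159), THSD4 (log2 fold change 4.06 ± 0.79, adjusted p = 0.0107), IGFN1 (log2 fold change 3.98 ± 1.21, adjusted p = 0.0362) and FRMD1 (log2 fold change 3.92 ± 1.13, adjusted p = 0.0309). SLC36A2 ran at 0 to 0.338 CPM in thoracic cord (median 0.0327) and 1.75 to 57.5 CPM in lumbar cord (median 5.06). In thoracic cord PLEKHG7 ran at 0 to 0.526 CPM and MYLK4 at 0 to 0.254 CPM. SMCO3 ran there at 0 to 1.54 CPM, IGFN1 at 0 to 0.451, FRMD1 at 0.0464 to 0.902 and THSD4 at 0.161 to 0.627. All of the 8 genes but GAS2L3 passed the filter on low counts mainly through lumbar libraries in which they are high. For these genes the filter favoured a rise. In all 8 genes lumbar control 2 was the highest or second highest library. Without control 2, SLC36A2 was at 5.77, PLEKHG7 at 4.99, GAS2L3 at 4.58, SMCO3 at 3.67 and THSD4 at 3.43. IGFN1 lost its call without control 2, control 3, treated 2 or treated 3 (adjusted p 0.0605 to 0.0894) and had a log2 fold change of 5.19 without treated 4. FRMD1 lost its call without control 4, treated 2 or treated 4 (adjusted p 0.0508 to 0.0678) and had a log2 fold change of 3.08 without control 2 and 4.72 without treated 3. Other animals moved some of them too: SLC36A2 was at 7.88 without treated 4, PLEKHG7 at 6.77 without control 4, SMCO3 at 5.24 without control 4 and MYLK4 at 5.55 without control 3.

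Axon guidance and adhesion genes rose in 22 of 38 cases and fell in 0 (median 0.92). EPHA3, an ephrin receptor, ran at 0.135 to 0.977 CPM in thoracic cord (median 0.465) and 0.77 to 7.08 CPM in lumbar cord (median 3.91) (log2 fold change 2.85 ± 0.31, adjusted p = 0.00891), and CDH7, a cadherin of motor and interneuron pools, at 4.08 to 11.5 CPM in thoracic cord (median 5.93) and 14.7 to 73.7 CPM in lumbar cord (median 25.7), without overlap (log2 fold change 2.16 ± 0.31, adjusted p = 0.00891). The guidance ligand gene SLIT2 rose by 2.36 ± 0.35 and the plexin gene PLXNA2 by 1.29 ± 0.20. The count was 9 without treated 3 and 12 without the 2 animals of high mitochondrial share, and length adjustment gave 17 higher and 4 lower.

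Of 33 genes of morphogens and growth factors 9 rose and 0 fell (median 0.72). IGFBP5, which binds insulin-like growth factors (chromosome 12, 106290362 to 106307885), ran at 4.33 to 22.8 CPM in thoracic cord (median 11.6) and 38.2 to 268 CPM in lumbar cord (median 63.9), without overlap (log2 fold change 3.14 ± 0.50, adjusted p = 0.00898). The WNT inhibitor gene SFRP1 ran at 20.1 to 44.5 CPM in thoracic cord (median 27.6) and 107 to 1813 CPM in lumbar cord (median 178), with its highest value in lumbar control 2 (log2 fold change 2.84 ± 0.52, adjusted p = 0.00996). SFRP5 rose by 2.21 ± 0.45 and WNT5A by 1.99 ± 0.53. WNT5A lost its call without control 2 or treated 3 (adjusted p 0.0667 to 0.0685). The count was 4 without control 4 or without the 2 animals of high mitochondrial share, and 3 without treated 3.

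Of 16 immediate early genes 5 rose (FOS, FOSL2, EGR1, EGR2 and NR4A2) and 0 fell. EGR1 ran at 2.91 to 12.6 CPM in thoracic cord (median 3.73) and 8.39 to 25.3 CPM in lumbar cord (median 12.7) (log2 fold change 1.60 ± 0.22, adjusted p = 0.00891) and FOS rose by 1.12 ± 0.17, both in 6 of 6 animals. EGR2, also a regulator of peripheral myelination, rose by 2.88 ± 0.66 and had its highest value in lumbar control 2. EGR2 had a log2 fold change of 2.30 without control 2, and NR4A2 lost its call without control 2, control 3, control 4, treated 2 or treated 3 (adjusted p 0.0538 to 0.0836).

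All 27 tested cytosolic ribosomal protein genes fell in lumbar cord (median -1.24). RPS6 ran at 281 to 1098 CPM in thoracic cord (median 509) and 165 to 539 CPM in lumbar cord (median 189.8) (log2 fold change -1.24 ± 0.26, adjusted p = 0.0124) and RPS9 at 165 to 870.3 CPM in thoracic cord (median 307) and 91.7 to 399 CPM in lumbar cord (median 122) (log2 fold change -1.35 ± 0.29, adjusted p = 0.0125). The median exon length of these genes was 837 bases, against 3038 for genes that passed in neither direction. Length adjustment left 25 lower with a median of -0.83, and without treated 3 the count was 5, with the median at -1.22. Without the animal block the median was -1.31 and 0 of the 27 passed.

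Genes of the mitochondrial genome were lower without passing in 12 of 13 cases, and ND3 passed (log2 fold change -1.30 ± 0.41, adjusted p = 0.0414, lower in 5 of 6 animals). ND3 lost its call without control 2, control 4, treated 2, treated 3 or treated 4 (adjusted p 0.0667 to 0.106). Without control 3, whose thoracic mitochondrial share was the lowest of the 6 at 10.5%, 11 of the 13 passed. The small heat shock protein gene HSPB8 ran at 423 to 989 CPM in thoracic cord (median 683) and 199.7 to 456 CPM in lumbar cord (median 258) (log2 fold change -1.29 ± 0.19, adjusted p = 0.00891) and CRYAB at 669 to 1670.5 CPM in thoracic cord (median 1168) and 272 to 806 CPM in lumbar cord (median 355) (log2 fold change -1.42 ± 0.24, adjusted p = 0.00925). Of 10 cytosolic heat shock genes 3 fell (HSPB8, CRYAB and DNAJB1) and 1 rose (HSPH1), with 0 rises when any animal but treated 2 was left out. Fold changes of the 10 genes were positive in 5 and negative in 5 (median -0.14). DNAJB1 lost its call without treated 3 (adjusted p 0.0558). Of 11 genes of the perineuronal matrix 1 rose (TNC) and 3 fell (BCAN, NCAN and HAPLN2), and 1 fell without control 2, control 3 or treated 3. The counts of these 2 lists stand beside the 15% of all genes that rose and the 19% that fell.

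Plasma protein genes of the hepatocyte were among the largest falls. Of 7 tested, 3 fell (ALB, FGB and SERPINA1) and 0 rose, where 19% of all genes fell and 15% rose. ALB ran at 0.928 to 165 CPM in thoracic cord (median 18.4) and 0 to 4 CPM in lumbar cord (median 0.586), with 143 and 165 CPM in the thoracic libraries of control 4 and treated 4 (log2 fold change -4.43 ± 1.48, adjusted p = 0.0488). FGB ran at 0.371 to 13.5 CPM in thoracic cord (median 1.6) and 0.0401 to 0.314 CPM in lumbar cord (median 0.179) (log2 fold change -3.69 ± 0.87, adjusted p = 0.0169), and APOA2, outside the list, at 0.0928 to 15.3 CPM in thoracic cord (median 1.44) and 0 to 0.333 CPM in lumbar cord (median 0.0189) (log2 fold change -5.13 ± 1.18, adjusted p = 0.0157). SERPINA1 fell, at -1.39 ± 0.23 in 6 of 6 animals. FGB and APOA2 passed the filter on low counts mainly through thoracic libraries in which they are high, so the filter favoured a fall. ALB lost its call without control 2, control 4, treated 3 or treated 4 (adjusted p 0.0647 to 0.11) and had a log2 fold change of -5.44 without control 3 and -5.52 without treated 2. FGB had a log2 fold change of -3.09 without control 4, -4.29 without treated 2 and -3.02 without treated 4. APOA2 had a log2 fold change of -4.15 without control 4, -5.90 without treated 3 and -4.35 without treated 4. The 2 thoracic libraries with the most ALB were also those with a mitochondrial share over 30%.

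The other genes among the 15 largest falls were PDILT (log2 fold change -2.89 ± 0.41, adjusted p = 0.00891), MYRFL (log2 fold change -2.77 ± 0.49, adjusted p = 0.00967), CYP3A4 (log2 fold change -2.53 ± 0.74, adjusted p = 0.0321), HSPB3 (log2 fold change -2.51 ± 0.34, adjusted p = 0.00891), FAM178B (log2 fold change -2.46 ± 0.44, adjusted p = 0.0096), MLN (log2 fold change -2.42 ± 0.38, adjusted p = 0.00898), CNMD (log2 fold change -2.33 ± 0.33, adjusted p = 0.00891), NPC1L1 (log2 fold change -2.23 ± 0.37, adjusted p = 0.00919) and ITIH1 (log2 fold change -2.17 ± 0.31, adjusted p = 0.00891). CNMD, which encodes chondromodulin, ran at 94.8 to 284 CPM in thoracic cord (median 140.4) and 10.6 to 93.8 CPM in lumbar cord (median 30.8), and HSPB3, another small heat shock protein, at 2.96 to 13.6 CPM in thoracic cord (median 5.18) and 0.333 to 1.95 CPM in lumbar cord (median 1.09), both without overlap. Each of the 9 genes was lower in lumbar cord in 6 of 6 animals. CYP3A4 lost its call without control 3, control 4, treated 3 or treated 4 (adjusted p 0.0529 to 0.0887).

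Few genes of ependyma or lymphocytes were called, where 15% of all genes tested rose and 19% fell. Of 22 genes of ependyma and motile cilia 2 fell (DNAI1 and PIFO), while 14 of the 22 had positive fold changes (median 0.21). The list had 0 falls when any animal but control 3 was left out, and 3 rises without treated 2. FOXJ1, the master regulator of motile cilia, did not pass (log2 fold change -0.66 ± 0.32, adjusted p = 0.139). Of 14 T, B and NK cell genes 1 fell (TRAC). Of 7 tested genes of neutrophils and red blood cells 2 fell (S100A8 and LTF), and 0 without control 4 or without any of the 3 treated animals.

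Treatment was tested as an interaction, which asks whether the lumbar against thoracic difference was itself different in treated animals. No gene passed in edgeR (0 of 14167, 0%), 286 genes had an unadjusted p under 0.05, limma voom called 0 and DESeq2 called 4. In simulated data the edgeR interaction test found 2% of 2-fold and 34% of 4-fold changes, so its 0 calls do not show that differences are absent. In simulated data of the region comparison, 42 of 209 DESeq2 calls were false, against 8 of 150 in edgeR. The 4 were CHI3L1, CHI3L2, CHIT1 and SERPINA3, the first 3 of which encode chitinases or chitinase-like proteins and the last an inhibitor of serine proteases made by reactive astrocytes. In control animals CHI3L1 was at 175, 42.95 and 79.6 CPM in thoracic and 45.1, 13.98 and 39.5 CPM in lumbar cord. In treated animals it was at 183, 141 and 127 CPM in thoracic and 224, 177 and 154 CPM in lumbar cord, so that lumbar values were lower in every control and higher in every treated animal. The interaction was 1.83 on the log2 scale (DESeq2 adjusted p = 0.000328, edgeR adjusted p = 0.9999). SERPINA3 was at 98.3, 231 and 83.7 CPM in thoracic and 27.1, 16.1 and 12.2 CPM in lumbar cord of controls. In treated animals it was at 214, 454 and 342 CPM in thoracic and 281, 337 and 287 CPM in lumbar cord. With 3 animals a group, the region difference was also fitted in each alone. Treated animals gave 599 calls, and of the 598 of these that controls could test, 597 had the same sign in controls, with which they share no animal. Over all 14072 genes tested in both, 12118 (86.1%) had the same sign. Controls alone gave 0 calls (3745 genes at an unadjusted p under 0.05).

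Cervical cord of the same 6 animals was compared in turn. The comparisons below share libraries, so their values are set side by side and no overlap is drawn from them. In a fit of all 3 regions, 7 genes passed as higher (0.0486% of 14396 tested) and 3 as lower (0.0208%) in lumbar than in cervical cord. For cervical against thoracic cord 2373 genes passed upward (16.5%) and 2905 downward (20.2%). Not passing does not mean equal levels. HOXC10 ran at 0 to 10.5 CPM of total counts in cervical and 32.4 to 65.5 in lumbar cord and did not pass. The cervical libraries were uneven in some HOX genes, with HOXC8 at 1.65 to 75.6 CPM of total counts. The 7 genes higher in lumbar than in cervical cord were HOXD10 (11.61 ± 0.76), HOXA11 (9.85 ± 0.91), HOXA10 (7.17 ± 0.73), HOXD9 (3.39 ± 0.39), MYOC (2.87 ± 0.43), IGFBP5 (2.49 ± 0.40) and ADAMTSL1 (1.51 ± 0.25), and the 3 lower were HOXC5 (-1.52 ± 0.25), DAO (-1.38 ± 0.22) and XIRP2 (-1.20 ± 0.12). DAO, an enzyme that breaks down D-amino acids, was at a mean of 24.8 CPM in lumbar and 93.5 CPM in thoracic cord.

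The channel list had a median log2 fold change of 0.49 for lumbar over cervical and 0.88 for cervical over thoracic cord, and the synaptic vesicle list 0.38 and 1.15. SV2C was at 0.57 ± 0.55 (adjusted p = 0.718) and 3.05 ± 0.60 (adjusted p = 0.00383) in these 2 comparisons. Ribosomal protein genes had medians of 0.02 and -1.38, and endothelial and pericyte genes 0.05 and 0.89. Central myelin genes were spread over both steps, with medians of -0.59 and -0.40, and Schwann cell genes stood at 1.51 and 0.64. CARTPT was at -2.28 ± 0.68 (adjusted p = 0.2) for lumbar over cervical and -1.21 ± 0.64 (adjusted p = 0.154) for cervical over thoracic cord, and neither passed. Of the HOX genes, HOXA9 was at -2.49 ± 0.60 and HOXA10 at -4.21 ± 0.69 for cervical over thoracic cord, both past the threshold.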

How the data were processed

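Libraries of poly(A) RNA were sequenced in 50 bp read pairs. The submitters' processing notes name STAR 2.5.3a. The deposited counts per gene came from featureCounts 1.4.6-p1 with Ensembl release 94 on Macaca_fascicularis_5.0, per the file headers, without strand and with reads over more than 1 gene dropped. Everything else was computed here. CPM, edgeR 4.0.16 (R 4.3.3, robust quasi-likelihood test, TMM, filterByExpr by region, animal as fixed block) and Benjamini-Hochberg adjustment over all genes tested were used, and DESeq2 1.42.0 and limma 3.58.1 served as alternatives. The scripts were tested on simulated data. The labels pair both regions by animal, and the deviations of an animal's 2 libraries correlated at -0.09 (control 4) to 0.71 (treated 4), with a mean of 0.23 against -0.05 between animals, and 2 of 6 lumbar libraries correlated best with their own animal. Each sample is a separate animal within its region. Lists and members were chosen with earlier results of these data known. The text names HOX genes, the 15 largest rises and falls moving 1 way in every animal with a mean of at least 1 CPM, up to 4 genes of each list with the smallest p, and a set of defining genes. Genes named to spell out a count of 5 or fewer, or from other comparisons, or as further examples, were chosen after their values were seen. MNX1 and the remaining tissues were not analysed here, and some genes that this rule names are not reported here.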

Additional observations from a re-analysis of the deposited data

Results flagged for a closer look

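The difference between the lumbar and the thoracic library of each animal, in log2 of CPM plus 0.5, was compared over the 6 animals for 178 reported genes, and 1 animal stood far from the other 5 in 14 of them. Chance alone flags about 1 in 20 such groups. Treated 2 stood apart in HOXD10, at 0.97 against 5.55 to 6.58 in the others, and in HOXA11, at 0.86 against 3.93 to 5.32. Control 2 stood apart in SFRP1 (6.15 against 2.10 to 2.55), EGR2 (5.73 against 0.71 to 2.39), ADAMTSL1 (2.95 against 1.05 to 1.61) and CD163 (1.61 against 0.57 to 0.94).

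Control 4, whose thoracic library had the highest mitochondrial share, stood apart in RPS6 (-2.73 against -1.11 to -0.76), RPS9 (-3.00 against -1.33 to -0.84), TYROBP (-3.40 against -1.87 to -1.04), AIF1 (-2.48 against -1.24 to -0.68) and HOXB2 (-1.40 against -0.67 to -0.52). Treated 3 stood apart in ZIC4 (2.47 against 0.42 to 1.14) and XIRP2 (-0.47 against -1.28 to -0.9996), and treated 4 in FDFT1 (-0.42 against -1.15 to -0.90). The part of any library property in these values was not tested.

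CHI3L1 and CHIT1 were lower in lumbar cord in all 3 controls and higher in all 3 treated animals. The treated minus control difference of the log2 fold changes was 1.83 for CHI3L1 and 3.69 for CHIT1. DESeq2 gave adjusted p values of 0.000328 and 0.00189 for these interactions, whereas edgeR's quasi-likelihood test gave 0.9999 for both.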

How the results depend on the processing

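The 4804 genes past the threshold became 2602 with no replicate block, that is without pairing by animal, 599 in treated animals alone, 0 in control animals alone (3745 at an unadjusted p under 0.05 in edgeR), 1889 without the 2 animals of high mitochondrial share, 2 without the 2 animals of lumbar code SC6, and 1773 to 4564 with 1 animal left out, the lowest without treated 3 and 2869 without control 2. Fewer animals enter all but the unpaired of these fits. The cause of the drop without the block was not tested. Counts under the other tools, scalings and filters ran from 4436 to 6796. The interaction gave 4 genes with DESeq2 and 0 in every other fit run. The mitochondrial share differed by -9.99 percentage points over all 8 animals (exact p = 0.03125), and by -10.7 to -5.14 with 1 of the 6 animals left out. With length adjustment HOXA3 was at -0.10, HOXB3 at -0.36 and HOXC4 at -0.40, each above 0 in the reported fit. HOXC4 was at -0.16 in treated animals alone, and ran from -0.037 (without control 3) to 0.23 with 1 animal left out. Over all 8 animals HOXB5 was at -0.11, HOXB8 at -0.27, SLC5A7 at -0.027 and ISL1 at -0.38. SLC5A7 was at -0.29 and ISL1 at -0.36 in treated animals alone, and ISL1 ran from -0.096 (without control 3) to 0.63 with 1 animal left out. HOXA2 was at 0.0081 with total counts as library size. In treated animals alone CHI3L1 was at 0.30 and CHIT1 at 0.93. None of these genes had passed, and the causes were not tested. Of the 178 reported genes, 28 lost their call with no replicate block and 24 with length adjustment. Counts under 3 per group set a floor for the HOX genes at 0.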
